A study of Mus musculus with 207 samples.

Results

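The 7 transcripts described here, Fgf21, Gdf15, Angptl4, Angptl8, Lect2, Ahsg and Fetub, encode proteins that the liver releases into the blood. They were chosen by gene symbol from the 55536 genes of the liver count table, each symbol matched 1 mouse Ensembl identifier, and the same 7 rows of the jejunum table served as contrast. Total RNA of liver and jejunum had been sequenced from C57BL/6 mice on 6 diets, each of which joined 1 of 2 protein sources, CAS or WPI, at a protein level of 30 to a fat level of 20, 40 or 55 (FAT-20, FAT-40 and FAT-55). The labels give these as abbreviations without units; from knowledge of the study, CAS is casein and WPI is whey protein isolate, and the question is how protein source changes the response to dietary fat. From FAT-20 to FAT-55 the CAS groups held 11, 12 and 11 mice and the WPI groups 12, 12 and 12 mice, which gave 70 libraries in each tissue. No transgene, deletion or drug is named for any group, every mouse ate 1 of the 6 diets, and age, sex, hour of collection and feeding state are not given in the sources used here.

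These proteins are hormones or carriers through which hepatocytes act on other organs. FGF21 needs the co-receptor beta-Klotho on its target cells, and its gene is induced by the fatty acid receptor PPARA in fasting and by ATF4, the transcription factor of amino acid shortage and cell stress; GDF15 is a stress-induced factor that lowers food intake through the hindbrain receptor GFRAL and its partner RET. ANGPTL4 and ANGPTL8 inhibit lipoprotein lipase, the enzyme that releases fatty acids from triglyceride-rich lipoproteins: ANGPTL4 rises in fasting, whereas ANGPTL8 rises after feeding. Fetuin-A (Ahsg) is an abundant plasma protein that binds calcium phosphate and can inhibit the insulin receptor, fetuin-B (Fetub) inhibits an egg protease, and LECT2 is a chemotactic protein that binds the receptors MET and TIE1 and whose gene is a known target of beta-catenin in liver.

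The bases before the transcription start are shown for 4 of the genes, because their transcripts behaved differently across the diets. Each of these windows also held a match to a motif listed below. RefSeq promoter windows (GRCm38.p6) were found for 6 of the 7 symbols, all but Angptl4. Each sequence is the 250 bases before the start, 5' to 3' on the gene's own strand, with capitals marking matches on either strand to CACGTG (E-box), TGATGNAAT (amino acid response element, to which ATF4 binds), TTGCNNAA (C/EBP, a liver factor family), TGTTTAC (forkhead), CTTTGAT (TCF, the partner of beta-catenin) or TATAAA (the core of a TATA box).
Fgf21 (chr7:45615491-45615740, minus strand): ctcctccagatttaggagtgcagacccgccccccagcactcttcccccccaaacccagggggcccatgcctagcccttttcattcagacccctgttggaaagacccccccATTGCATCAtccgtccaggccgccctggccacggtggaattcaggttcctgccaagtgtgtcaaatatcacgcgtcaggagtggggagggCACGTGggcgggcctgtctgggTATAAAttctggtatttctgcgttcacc
Angptl8 (chr9:21835260-21835509, plus strand): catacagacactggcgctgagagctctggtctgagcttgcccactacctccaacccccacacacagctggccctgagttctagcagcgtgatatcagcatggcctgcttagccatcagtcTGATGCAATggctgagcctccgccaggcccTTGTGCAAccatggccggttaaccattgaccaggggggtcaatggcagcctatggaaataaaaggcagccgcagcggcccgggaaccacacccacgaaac
Ahsg (chr16:22891765-22892014, plus strand): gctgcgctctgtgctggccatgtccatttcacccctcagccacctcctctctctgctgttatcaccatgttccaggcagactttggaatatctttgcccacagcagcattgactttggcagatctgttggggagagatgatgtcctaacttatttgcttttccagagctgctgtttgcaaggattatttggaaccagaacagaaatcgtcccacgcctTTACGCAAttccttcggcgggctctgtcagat
Lect2 (chr13:56548539-56548788, minus strand): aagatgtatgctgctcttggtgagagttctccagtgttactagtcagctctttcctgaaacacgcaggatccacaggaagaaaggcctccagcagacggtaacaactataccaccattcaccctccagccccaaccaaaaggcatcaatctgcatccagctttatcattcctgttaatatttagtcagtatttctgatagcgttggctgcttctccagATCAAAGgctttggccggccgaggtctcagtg
The Fgf21 window held a match to the amino acid response element 132 to 140 bases before the start, an E-box at 45 to 50 and a TATA box at 23 to 28. The Angptl8 window held a match to the same element at 122 to 130 bases and a C/EBP match at 93 to 100. Ahsg carried a C/EBP match at 25 to 32 bases and Lect2 a TCF match at 26 to 32, and 1 of the 2 Fetub starts had a TATA box at 26 to 31. Shares were taken over the same 250 bases before the start in all 32851 promoter windows. The amino acid response element was in 0.816%, TCF in 3.21%, forkhead in 3.17%, the E-box in 6.02%, C/EBP in 9.56% and TATAAA in 12.4%. A match describes these letters only, and binding was not measured.

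All 7 genes are protein coding in GENCODE M21 on GRCm38. Fgf21 (ENSMUSG00000030827) lies at chr7:45613886-45615490 with 0.95 kb of exons, Gdf15 (ENSMUSG00000038508) at chr8:70629393-70632456 with 1.85 kb, Angptl4 (ENSMUSG00000002289) at chr17:33773750-33781830 with 3.54 kb and Lect2 (ENSMUSG00000021539) at chr13:56542464-56548502 with 0.92 kb. Angptl8 (ENSMUSG00000047822, chr9:21835510-21837347, 0.86 kb) sits inside an intron of Dock6 on the opposite strand and shares no exon base with it. The fetuin genes Ahsg (ENSMUSG00000022868, chr16:22891277-22899449) and Fetub (ENSMUSG00000022871, chr16:22918334-22939778) are neighbours in a 190.8 kb cluster of cystatin-like genes with Hrg, Kng2 and Kng1. The Ahsg promoter window printed above lies inside this Ahsg span, because the RefSeq start used there is downstream of the GENCODE start. Of the Ahsg exon bases, 62 (2.8%) overlap the antisense gene Gm30505; whether reads were counted by strand is not given in the sources used here.

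Reads counted on genes ranged from 21000799 to 41024101 per liver library and from 17502377 to 23808051 per jejunum library. Differences between diets were tested with edgeR's quasi-likelihood test over all 15051 liver genes and all 16992 jejunum genes that passed the count filter, each tissue on its own, with Benjamini-Hochberg adjustment over all of them; a gene is said to have risen, fallen or changed only at an adjusted p below 0.05. Of the 8 hepatocyte markers (Alb, Apoa1, Apob, Ttr, Cyp2e1, Cps1, Tat and Hnf4a) none was at 0 in liver, and their summed level ran from 80000 to 160000 CPM (a gene's reads relative to the library's scaled total). In liver, 1 library (WPI FAT-40 replicate 2) held 984 CPM of exocrine pancreas transcripts against at most 5.16 CPM in any other. Within a diet, the animal identifiers fall into 4 stems (the identifier without its last digit, 24 stems in all; the labels do not say what a stem marks), and mice of a stem may not be independent, in which case the p-values here are too small. Summing counts by stem left 6 of the 19 liver calls described below: Fetub and Lect2 at FAT-40, and Fetub, Ahsg and Lect2 at FAT-55, on CAS, and Lect2 at FAT-55 on WPI. In a bulk library, fewer cells of a type and less RNA per cell cannot be told apart.

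All 7 members passed the count filter in liver. Per kilobase of exon, their mean liver levels over the 70 libraries were 2330 CPM per kb for Ahsg, 161 for Fetub, 125 for Lect2, 30.1 for Angptl4, 23.3 for Angptl8, 13.9 for Gdf15 and 4.32 for Fgf21. The order of spread was nearly the reverse. The highest library exceeded the lowest 41.0-fold for Gdf15, 28.8-fold for Fgf21 and 10.1-fold for Angptl8, but 5.83-fold for Angptl4, 4.65-fold for Lect2, 2.87-fold for Fetub and 2.27-fold for Ahsg. Fgf21 rested on 16 to 498 reads per library (median 87).

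**Figure D1:**
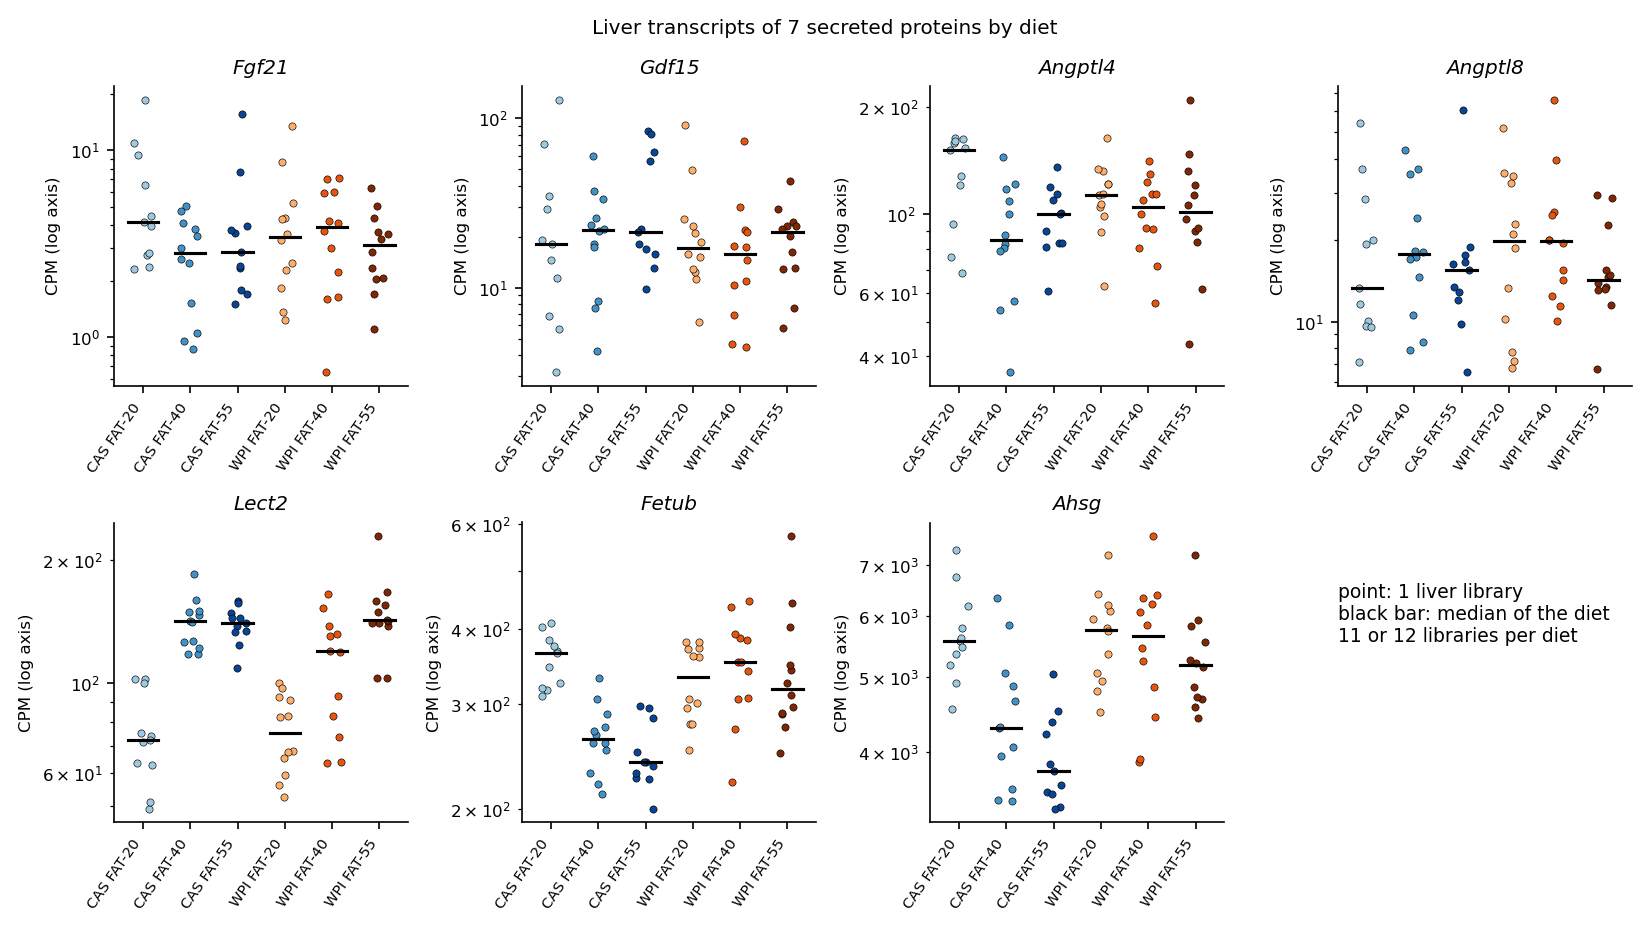
Liver level of each transcript in CPM (log axes that differ between panels) for the 6 diets; each point is 1 library and the black bar is the median of the diet. Fetub and Ahsg are low on CAS FAT-40 and CAS FAT-55, Lect2 is low on both FAT-20 diets, and Fgf21, Gdf15 and Angptl8 spread widely within every diet.

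The fetuin transcripts fell with dietary fat on CAS, and no such fall passed the test on WPI. On CAS, Fetub had a lowest, median and highest level of 309, 365 and 410 CPM at FAT-20, 212, 262 and 332 CPM at FAT-40, and 200, 240 and 298 CPM at FAT-55. The FAT-20 and FAT-55 libraries did not overlap, and those of FAT-20 and FAT-40 overlapped at their edges. Fetub was 1.35-fold lower at FAT-40 (log2 -0.43 ± 0.10 SE, adjusted p = 0.0004, 12 of 12 libraries below the FAT-20 median) and 1.44-fold lower at FAT-55 (log2 -0.53 ± 0.10, adjusted p = 1.9e-05, 11 of 11). Ahsg on CAS had a lowest, median and highest level of 4540, 5570 and 7330 CPM at FAT-20, 3450, 4300 and 6330 CPM at FAT-40, and 3370, 3770 and 5050 CPM at FAT-55. These groups overlapped, with 10 of 12 FAT-40 libraries and 11 of 11 FAT-55 libraries below the FAT-20 median. The fall was 1.27-fold at FAT-40 (log2 -0.35, adjusted p = 0.0046) and 1.45-fold at FAT-55 (log2 -0.54 ± 0.10, adjusted p = 1.3e-05). Of the 7 members, 5 changed between FAT-40 and FAT-20 on CAS and 3 between FAT-55 and FAT-20, where 30.2% and 43.3% of all tested genes were called; none changed between FAT-55 and FAT-40 (3.6% of all genes).

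On WPI the fetuin levels lay close together at all fat levels. Fetub had a lowest, median and highest level of 251, 332 and 381 CPM at FAT-20, 222, 353 and 446 CPM at FAT-40, and 248, 318 and 573 CPM at FAT-55. Ahsg ran through 4500, 5770 and 7210 CPM, then 3880, 5650 and 7630 CPM, then 4430, 5190 and 7210 CPM. All of these groups overlapped. Against FAT-20 the log2 difference of Fetub was 0.09 at FAT-40 (adjusted p = 0.63) and 0.07 at FAT-55 (adjusted p = 0.62), and that of Ahsg was -0.04 (adjusted p = 0.87) and -0.10 (adjusted p = 0.46). Only Lect2 among the 7 members changed in either comparison (6.54% and 26.6% of all genes called), and none changed between FAT-55 and FAT-40 on WPI (2.29% of all genes).

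The difference between the protein sources in this response was itself tested. From FAT-20 to FAT-55 the log2 change of Fetub was higher on WPI than on CAS by 0.60 ± 0.14 (adjusted p = 0.0058) and that of Ahsg by 0.43 ± 0.14 (adjusted p = 0.043). These were 2 of 7 members, beside 6.82% of all genes. From FAT-20 to FAT-40 the difference was 0.53 ± 0.14 for Fetub (adjusted p = 0.03), 1 of 7 members beside 1.49% of all genes, and 0.31 ± 0.14 for Ahsg (adjusted p = 0.24). None of these 3 calls remained when counts were summed by stem (adjusted p = 0.17 and 0.33 at FAT-55 and 0.47 at FAT-40). The Fetub call at FAT-40 was also lost without WPI FAT-40 replicate 1, 2 or 3 (adjusted p = 0.053, 0.053 and 0.056), and the Ahsg call without any of 18 of the 46 libraries.

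Compared directly at the same fat level, both fetuins were higher on WPI than on CAS at FAT-40 and FAT-55. At FAT-55, Fetub was 1.39-fold higher (log2 0.48 ± 0.10, adjusted p = 0.0006) and Ahsg 1.34-fold higher (log2 0.43 ± 0.10, adjusted p = 0.0019), each with 12 of 12 WPI libraries above the CAS median. At FAT-40, Fetub was 1.33-fold higher (log2 0.41 ± 0.10, adjusted p = 0.0038, 11 of 12) and Ahsg 1.23-fold higher (log2 0.30 ± 0.10, adjusted p = 0.037, 10 of 12). The 2 fetuins were the only members called at either level, beside 14.5% of all genes at FAT-55 and 8.21% at FAT-40. At FAT-20 no member changed (0.512% of all genes), with log2 differences of -0.12 for Fetub (adjusted p = 0.61) and -0.01 for Ahsg (adjusted p = 0.98). Averaged over the 3 fat levels, Fetub was 1.19-fold and Ahsg 1.18-fold higher on WPI (adjusted p = 0.00084 and 0.0017), again 2 of 7 members beside 14.7% of all genes. The Ahsg call at FAT-40 was lost without any of 13 of the 24 libraries, among them the 1 with pancreas transcripts (log2 0.28, adjusted p = 0.07; Fetub 0.39, adjusted p = 0.0089), and summing by stem ended all 6 of these calls (adjusted p from 0.052 to 0.29).

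**Figure D2:**
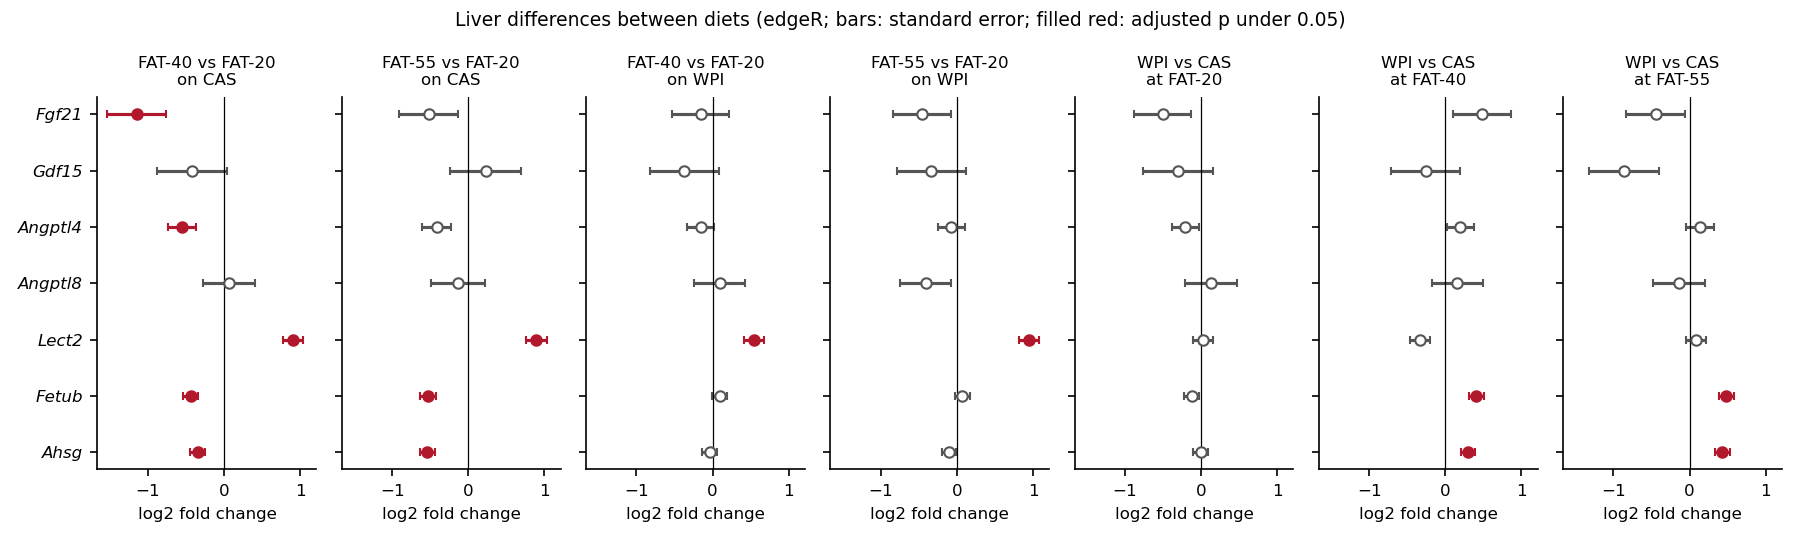
Log2 fold change in liver from edgeR for each transcript (rows) in 7 comparisons of diets (panels); bars are the standard error, and filled red points have an adjusted p below 0.05. The fetuins lie left of 0 on CAS and close to 0 on WPI, and Lect2 lies right of 0 in all 4 fat comparisons.

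The other genes of the cystatin cluster moved with the fetuins between protein sources. Hrg (histidine-rich glycoprotein) and the kininogens Kng1 and Kng2, precursors of bradykinin, were all higher on WPI at FAT-40 and at FAT-55 (3 of 3 each, list median log2 0.32 and 0.35, against 0.01 and 0.00 over all genes) and none at FAT-20. Of all genes, 8.21% were called at FAT-40, 14.5% at FAT-55 and 0.512% at FAT-20. Kng1 stood at 1970 ± 381 CPM (SD, n = 12) on WPI FAT-55 and 1550 ± 120 CPM (n = 11) on CAS FAT-55 (log2 0.35 ± 0.07, adjusted p = 0.00058), and Hrg differed by 0.45 ± 0.10 (adjusted p = 0.0024). On CAS, Kng1 fell by 0.47 ± 0.07 (log2, adjusted p = 3.9e-07) from FAT-20 to FAT-55 and Kng2 by 0.17 ± 0.06 (adjusted p = 0.024), while Hrg did not pass the test; on WPI, Kng1 fell by 0.21 ± 0.07 at FAT-55 (adjusted p = 0.02). Other secreted liver proteins were read the same way. Of 26 listed, 11 fell and 3 rose from FAT-20 to FAT-55 on CAS (list median log2 -0.16, all genes 0.00; 43.3% of all genes called), 3 fell and 3 rose on WPI (26.6%), and 9 were higher and 1 lower on WPI than on CAS at FAT-55 (14.5%). On CAS FAT-55, Igfbp2, which binds insulin-like growth factors, was at 140 ± 45.2 CPM against 481 ± 101 CPM at FAT-20 (n = 11 each, log2 -1.78 ± 0.23, adjusted p = 4.6e-09). Igfals, which holds those factors in plasma, fell by 0.69 ± 0.09 (adjusted p = 1e-08) and Inhbc, a subunit of activin C, by 0.93 ± 0.13 (adjusted p = 5.9e-08). At FAT-55, Igfals was higher on WPI than on CAS by 0.68 ± 0.09 (adjusted p = 3.2e-07) and Igf1 by 0.43 ± 0.10 (adjusted p = 0.0022).

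The summed level of the 8 hepatocyte markers also moved with the fetuins. Its median was 117000 CPM on CAS FAT-20, 104000 on CAS FAT-40 and 92700 on CAS FAT-55, and 115000, 110000 and 107000 CPM on the WPI diets. Alb made up most of this sum, with a mean of 71700 CPM of 108000 CPM over all 70 libraries. Of these markers, 3 of 8 fell on CAS at FAT-40 and 3 of 8 at FAT-55, beside 30.2% and 43.3% of all genes called. On WPI at FAT-55, 1 of 8 fell (26.6% of all genes called). At FAT-55, 2 of 8 were higher on WPI than on CAS (14.5%). Their part in the fetuin result was not tested. Fetuin-A falls in the acute phase response, so proteins of that response are given too. Of 22, 4 rose and 3 fell on CAS at FAT-40, and 6 rose and 3 fell at FAT-55 (list median log2 0.05), shares near those of all genes (30.2% and 43.3%). The smallest p there was that of the acute phase protein Orm3, at 11.3 ± 5.82 CPM against 0.771 ± 0.657 CPM at FAT-20 (n = 11 each, log2 3.86 ± 0.39, adjusted p = 6.3e-12). Among 4 tested receptors and ligands that fetuins are known to bind, Insr, the insulin receptor, fell by 0.28 ± 0.06 (adjusted p = 6.4e-05) and Bmp4 by 0.39 ± 0.16 (adjusted p = 0.041) on CAS FAT-55, and Tlr4 rose by 0.65 ± 0.14 (adjusted p = 7.4e-05).

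Lect2 was the 1 member that rose with fat, and it did so on both protein sources. On CAS its lowest, median and highest levels were 49.1, 72.3 and 102 CPM at FAT-20, 118, 141 and 185 CPM at FAT-40, and 109, 140 and 159 CPM at FAT-55. Every library of the higher fat diets lay above every FAT-20 library. The rise was 1.87-fold at FAT-40 (log2 0.91 ± 0.13, adjusted p = 2.3e-07) and 1.86-fold at FAT-55 (log2 0.89, adjusted p = 2.3e-07). On WPI the lowest, median and highest levels were 52.4, 75.2 and 100 CPM at FAT-20, 63.7, 120 and 165 CPM at FAT-40, and 103, 143 and 229 CPM at FAT-55. The FAT-20 and FAT-55 libraries did not overlap, whereas the FAT-40 libraries spread over the range of both. Here the rise was 1.46-fold at FAT-40 (log2 0.55 ± 0.13, adjusted p = 0.0048), with 9 of 12 libraries over the median of FAT-20, and 1.94-fold at FAT-55 (log2 0.95 ± 0.13, adjusted p = 9e-08).

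The step of Lect2 between WPI FAT-40 and WPI FAT-55 did not pass the test (log2 0.41 ± 0.13, adjusted p = 0.067), nor did the difference between protein sources at FAT-40 (log2 -0.34 ± 0.13, adjusted p = 0.092). Without WPI FAT-40 replicate 10 both passed (adjusted p = 0.029 and 0.036), and the step also passed without WPI FAT-40 replicate 5, 6 or 12 or WPI FAT-55 replicate 12 (adjusted p = 0.046, 0.035, 0.043 and 0.043). The response to fat was not shown to differ by protein source (log2 -0.36 ± 0.18 at FAT-40, adjusted p = 0.32, and 0.06 at FAT-55, adjusted p = 0.89). Within diets 59.2% of the variance of Lect2 lay between identifier stems, against a median of 37.4% over all genes, and by stem sums its rise on WPI at FAT-40 did not pass (adjusted p = 0.18). The highest Lect2 library, WPI FAT-55 replicate 2, was also the highest for Fetub, Angptl4 and the hepatocyte markers. Without any single library the log2 rise of Lect2 on WPI at FAT-55 stayed between 0.88 and 1.0, and the Fetub difference between protein sources at FAT-55 between 0.38 and 0.52, all called. Without the WPI FAT-40 library that held pancreas transcripts, the Lect2 rise on WPI at FAT-40 was 0.60 (adjusted p = 0.0014).

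The receptors of LECT2 and targets of its known regulator were read beside it. Tie1, the endothelial receptor, rose by 0.30 ± 0.08 (log2, adjusted p = 0.00078) on CAS at FAT-55, and Met, the hepatocyte growth factor receptor, was higher on WPI than on CAS at FAT-55 by 0.24 (adjusted p = 0.024). Of 14 beta-catenin targets and genes of hepatocytes near the central vein, 4 rose and 3 fell on CAS at FAT-55 and 3 rose and 1 fell on WPI, shares near those of all genes (43.3% and 26.6%). Those with the smallest p on CAS went down: Notum, a secreted Wnt inhibitor, was at 16.6 ± 2.30 CPM against 24.0 ± 2.79 CPM (log2 -0.53 ± 0.10, adjusted p = 8e-06), and Znrf3, which removes Wnt receptors, fell by 0.40 ± 0.08 (adjusted p = 1.9e-05). On WPI, Znrf3 fell by 0.33 ± 0.07 (adjusted p = 0.00043) and Glul, glutamine synthetase, rose by 0.17 ± 0.07 (adjusted p = 0.042).

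Fgf21 was low and variable in liver and fell in 1 comparison. On CAS its lowest, median and highest levels were 2.32, 4.13 and 18.7 CPM at FAT-20, 0.864, 2.81 and 5.03 CPM at FAT-40, and 1.5, 2.86 and 15.7 CPM at FAT-55. On WPI they were 1.24, 3.45 and 13.5 CPM, then 0.649, 3.91 and 7.08 CPM, then 1.11, 3.11 and 6.26 CPM. All groups overlapped. The 3 highest livers were CAS FAT-20 replicate 1, CAS FAT-55 replicate 11 and WPI FAT-20 replicate 4. CAS FAT-20 replicates 3 and 2 came next, with replicate 2 at 9.5 CPM, so high values on that diet were not limited to 1 library. Fgf21 was 2.21-fold lower at FAT-40 than at FAT-20 on CAS (log2 -1.15 ± 0.39, adjusted p = 0.018, 10 of 12 libraries below the FAT-20 median). At FAT-55 on CAS the log2 difference was -0.52 ± 0.39 (adjusted p = 0.28), and on WPI it was -0.16 (adjusted p = 0.87) and -0.46 (adjusted p = 0.39). The FAT-40 call was lost without CAS FAT-20 replicate 1, the highest library at 18.7 CPM (log2 -0.83, adjusted p = 0.093), and by stem sums (adjusted p = 0.15). The FAT-55 difference passed without CAS FAT-55 replicate 11, at 15.7 CPM (log2 -0.98, adjusted p = 0.032), and shrank to -0.20 without CAS FAT-20 replicate 1. Differences between protein sources did not pass (log2 -0.51 at FAT-20, 0.48 at FAT-40 and -0.45 at FAT-55, adjusted p from 0.47 to 0.58).

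Genes of the FGF21 receptor system and of the pathways that induce Fgf21 were read in the same comparisons. Klb, which encodes beta-Klotho, was at 61.3 ± 10.9 CPM on CAS FAT-20 and 41.4 ± 9.75 CPM on CAS FAT-40 (log2 -0.56 ± 0.14, adjusted p = 0.0014), fell by 0.65 ± 0.14 at FAT-55 (adjusted p = 0.00021), and fell by 0.46 ± 0.14 on WPI at FAT-55 (adjusted p = 0.0091). Fgfr1, a receptor that pairs with it, fell by 0.68 ± 0.20 on CAS at FAT-55 (adjusted p = 0.0036). Of 6 genes of this receptor system, 3 fell and none rose in that comparison (list median log2 -0.18), beside 43.3% of all genes called. On CAS at FAT-40, where Fgf21 fell, Klb fell and the receptor Fgfr3 rose (log2 0.24 ± 0.09, adjusted p = 0.042), beside 30.2% of all genes. Of 26 PPARA targets other than the members, 18 fell and 1 rose on CAS at FAT-40 (list median log2 -0.39, all genes 0.00; 30.2% of all genes called), 16 fell and 3 rose at FAT-55 (43.3%), and on WPI 13 fell at FAT-40 (6.54%) and 9 fell and 2 rose at FAT-55 (26.6%). At FAT-55, 11 were higher and 2 lower on WPI than on CAS, beside 14.5% of all genes called. Ehhadh, a peroxisomal enzyme of fatty acid oxidation, dropped from 1950 to 450 CPM on CAS at FAT-40 (log2 -2.11 ± 0.18, adjusted p = 3.7e-14), and Cyp4a14, a fatty acid hydroxylase, from 4050 to 673 CPM (log2 -2.59 ± 0.22, adjusted p = 3.7e-14). Of 26 tested ATF4 targets, 7 fell and 1 rose on CAS at FAT-40 and 5 fell and 6 rose at FAT-55, which is close to the share of all genes called (30.2% and 43.3%). Asns, asparagine synthetase, was at 0.387 ± 0.237 CPM on CAS FAT-40, 1.82 ± 1.98 CPM on CAS FAT-20 (log2 -2.25 ± 0.67, adjusted p = 0.0075) and 5.33 ± 6.57 CPM on WPI FAT-40 (log2 3.8 ± 0.65 against CAS FAT-40, adjusted p = 7.5e-05).

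Gdf15 passed the test in none of the 12 liver comparisons. Its lowest, median and highest levels on CAS were 3.16, 18.2 and 129 CPM at FAT-20, 4.21, 22 and 59.9 CPM at FAT-40, and 9.85, 21.3 and 84.2 CPM at FAT-55. On WPI they were 6.25, 17.1 and 90.9 CPM, 4.47, 15.9 and 73.6 CPM, and 5.78, 21.2 and 42.5 CPM. Every diet overlapped every other, and the medians lay between 15.9 and 22 CPM. At FAT-55 the fitted difference of WPI from CAS was -0.87 ± 0.46 (log2, adjusted p = 0.20) although the medians were 21.2 and 21.3 CPM. Its receptor genes Gfral and Ret did not pass the count filter in liver. With a within-diet SD of 1.14 on the log2 scale, differences of this size could not be told from the spread between mice.

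Angptl4 fell on CAS at FAT-40. Its lowest, median and highest levels on CAS were 68.4, 152 and 164 CPM at FAT-20, 36.0, 84.9 and 145 CPM at FAT-40, and 60.9, 100 and 136 CPM at FAT-55. The groups overlapped, but every FAT-40 and FAT-55 library lay below the FAT-20 median. The difference was -0.55 ± 0.18 at FAT-40 (log2, 1.47-fold lower, adjusted p = 0.015) and -0.42 at FAT-55 (1.34-fold lower, adjusted p = 0.061, not passing). The FAT-55 difference passed without CAS FAT-20 replicate 4, 7 or 10 or CAS FAT-55 replicate 2 or 5 (adjusted p = 0.029, 0.046, 0.026, 0.047 and 0.039), and the FAT-40 call was lost by stem sums (adjusted p = 0.065). On WPI the lowest, median and highest levels were 62.8, 113 and 164 CPM, 56.4, 105 and 141 CPM, and 43.1, 102 and 210 CPM, with log2 differences from FAT-20 of -0.16 (adjusted p = 0.68) and -0.07 (adjusted p = 0.81). These groups overlapped over most of their range. The response was not shown to differ between protein sources (0.40 ± 0.25 at FAT-40, adjusted p = 0.44).

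Angptl8 passed the test in none of the 12 liver comparisons either. Its lowest, median and highest levels were 7.1, 13.3 and 54.1 CPM, 7.88, 17.8 and 43.0 CPM, and 6.51, 15.5 and 60.4 CPM on CAS from FAT-20 to FAT-55, and 6.78, 19.9 and 51.9 CPM, 10.1, 19.8 and 66.1 CPM, and 6.7, 14.2 and 29.5 CPM on WPI. Libraries of every diet overlapped. The smallest adjusted p was 0.39, for WPI FAT-55 against FAT-20 (log2 -0.41 ± 0.34). Among 13 other genes of the lipoprotein lipase system, 4 rose and 1 fell on CAS at FAT-40 and 4 rose and 3 fell at FAT-55, beside 30.2% and 43.3% of all genes called. Vldlr, the receptor for very low density lipoprotein, went from 3.0 ± 1.16 to 13.9 ± 3.06 CPM on CAS at FAT-55 (log2 2.20 ± 0.35, adjusted p = 7.8e-07), and Lipc, hepatic lipase, fell by 0.43 ± 0.10 (adjusted p = 0.00036).

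Angptl8 is known to be induced by insulin together with the genes of fat synthesis, and these did move. Of 18 tested, 14 rose on CAS at FAT-40 (list median log2 0.83, all genes 0.00; 30.2% of all genes called) and 7 rose and 1 fell at FAT-55 (43.3%). On WPI 5 rose at FAT-40 (6.54%) and 5 at FAT-55 (26.6%). Between protein sources, 7 were lower on WPI at FAT-40 (8.21% of all genes called) and 5 at FAT-55 (14.5%), and none was higher. Srebf1, their master regulator, was at 443 CPM on CAS FAT-40 and 112 CPM on CAS FAT-20 (log2 1.99 ± 0.23, adjusted p = 4e-10), and Fasn, fatty acid synthase, rose by 1.80 ± 0.25 (adjusted p = 8.1e-08). Of 11 fasting and glucagon genes, 2 fell on CAS at FAT-40 and 5 at FAT-55, and on WPI none fell at FAT-40 and 4 fell at FAT-55, with none rising; beside these, 30.2%, 43.3%, 6.54% and 26.6% of all genes were called. Pck1, the rate-limiting enzyme of gluconeogenesis, went from 5020 ± 1380 to 3120 ± 761 CPM on CAS at FAT-55 (log2 -0.68 ± 0.16, adjusted p = 0.00046). Irs2, an insulin receptor substrate that rises in fasting, fell by 1.22 ± 0.25 (adjusted p = 4.9e-05). Since Fgf21, Angptl4 and Angptl8 follow meals and the hour of the day, 17 clock genes were read as well: none changed at FAT-40 on either protein, 3 fell on CAS and 1 on WPI at FAT-55, shares below those of all genes (43.3% and 26.6%). Per1 fell by 0.54 ± 0.22 on CAS (adjusted p = 0.044) and Cry2 by 0.27 ± 0.11 on WPI (adjusted p = 0.048). Their part in the member results was not tested.

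In jejunum 4 of the 7 members passed the count filter, and Lect2 alone was called. Fgf21 had 21 reads over all 70 libraries (54 at 0), Ahsg 68 reads and Fetub 164 reads. Mean levels were 27.7 ± 23.4 CPM for Angptl4 (SD, n = 70), 3.6 ± 0.90 CPM for Angptl8, 1.03 ± 0.322 CPM for Gdf15 and 1.45 ± 0.861 CPM for Lect2. Per kilobase these were 7.82 CPM per kb for Angptl4, 4.16 for Angptl8 and 1.58 for Lect2. The 2 tables were scaled separately, so levels are not compared across tissues.

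Lect2 rose with fat in jejunum on both proteins, as in liver. On CAS its lowest, median and highest levels were 0.205, 0.623 and 1.36 CPM at FAT-20, 1.23, 1.92 and 2.9 CPM at FAT-40, and 0.697, 1.72 and 4.12 CPM at FAT-55. On WPI they were 0.256, 0.618 and 1.32 CPM, 0.843, 1.65 and 2.82 CPM, and 0.665, 2.03 and 3.46 CPM. The groups overlapped, but every FAT-40 and FAT-55 library lay above the FAT-20 median of its protein source. At FAT-40 the rise was 3.13-fold on CAS (log2 1.65 ± 0.28, adjusted p = 2.1e-05) and 2.58-fold on WPI (log2 1.37 ± 0.27, adjusted p = 0.00019). At FAT-55 it was 2.90-fold on CAS (adjusted p = 4.3e-05) and 2.78-fold on WPI (adjusted p = 2.4e-05). Each was 1 of 4 tested members, beside 25.1% (CAS, FAT-40), 27.7% (CAS, FAT-55), 25.8% (WPI, FAT-40) and 30.8% (WPI, FAT-55) of all jejunum genes. No member differed between protein sources over all fat levels (15.3% of all genes), at FAT-20 (6.23%), at FAT-40 (0.571%) or at FAT-55 (3.7%).

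These jejunal values rest on few reads, 2288 in all and 5 to 91 per library. Within the jejunum table Lect2 had 35.4 times the CPM of Ahsg and 3.06 times that of Alb, whereas in the liver table Ahsg had 44.4 times and Alb 623 times the CPM of Lect2. Marker transcripts of other cell types also differed with fat in jejunum. Of all jejunum genes, 25.1% and 27.7% were called on CAS at FAT-40 and FAT-55, and 25.8% and 30.8% on WPI. Of 10 smooth muscle markers, 10 and 8 were lower on CAS at FAT-40 and FAT-55 and 10 and 10 on WPI. Their summed median was 1280 CPM on CAS FAT-20 against 603 and 786 CPM, and 1450 CPM on WPI FAT-20 against 672 and 599 CPM. Of 7 adipocyte markers, 6 were lower in 3 of these comparisons and 5 on CAS at FAT-55, with median Adipoq of 4.52 and 9.04 CPM on the FAT-20 diets and 0.0 CPM on the others. With both marker scores as covariates the Lect2 rise on WPI at FAT-40 was 1.43 and did not pass (adjusted p = 0.060), and the other 3 calls were kept. All 4 were kept without the 8 jejunum libraries that stood apart by Adipoq above 10 CPM or Fabp6, an ileal gene, above 100 CPM.

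**Figure D3:**
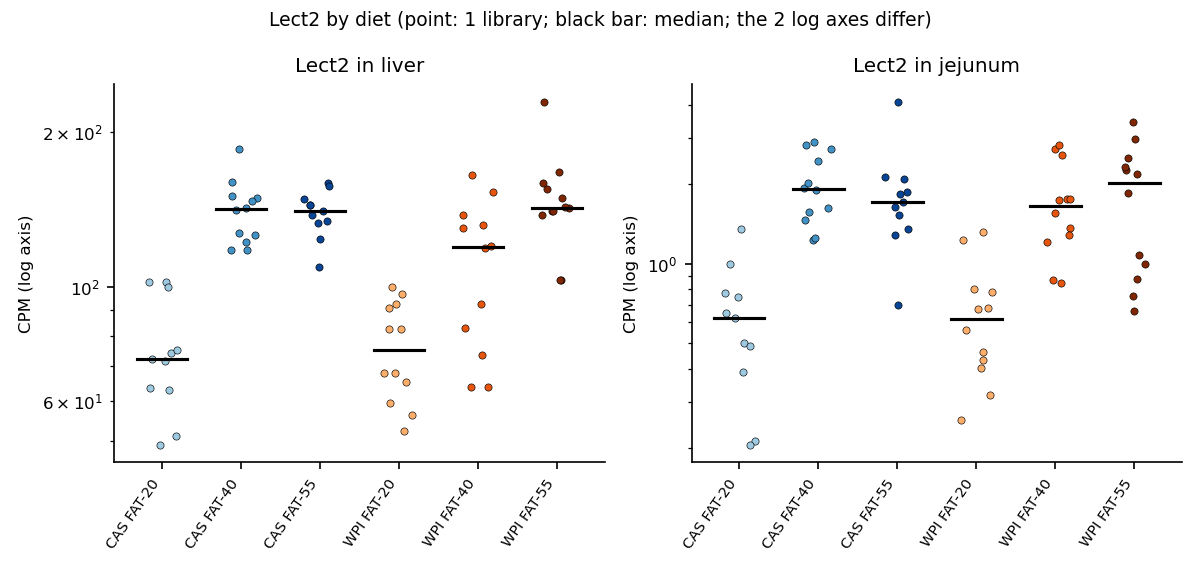
Lect2 level in CPM (log axes that differ) in liver and jejunum by diet; each point is 1 library and the black bar is the median. In both tissues the FAT-20 diets are lowest, with medians of 72.3 and 75.2 CPM in liver and 0.623 and 0.618 CPM in jejunum.

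Angptl4, Angptl8 and Gdf15 passed no test between diets in jejunum. Jejunal Angptl4 ranged from 6.35 to 155 CPM, and its log2 difference from FAT-20 at FAT-40 was -0.54 ± 0.43 on CAS (adjusted p = 0.37) and -0.63 on WPI (adjusted p = 0.27). PPARA targets rose in jejunum where they fell in liver. On CAS, 15 of 25 rose at FAT-40 and 18 of 25 at FAT-55, beside 25.1% and 27.7% of all jejunum genes called. On WPI, 9 of 25 rose at FAT-40 and 21 of 25 at FAT-55, beside 25.8% and 30.8%. None fell in these comparisons (list medians 0.36, 0.51, 0.26 and 0.58). Ret, the 1 of the 2 GDF15 receptor genes that could be tested there, was higher on WPI than on CAS over all fat levels (log2 0.24 ± 0.07, adjusted p = 0.0064) and changed in no comparison of fat levels.

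Angptl4 levels in liver and jejunum of the same mouse followed each other. With the diet mean subtracted, Pearson's r was 0.70 and Spearman's rho 0.72 over 70 mice (permutation test, adjusted p = 7e-05 over 7 members, the smallest the permutations can give), 0.73 without the 2 livers farthest from the median, 0.68 within identifier stems and 0.71 without the 8 jejunum libraries that stood apart. Within single diets (11 or 12 mice) r was 0.91, 0.65 and 0.61 on CAS and 0.51, 0.62 and 0.88 on WPI from FAT-20 to FAT-55, and rho was 0.82, 0.67 and 0.66, and 0.41, 0.59 and 0.85. The r was positive in all 6 diets, and after adjustment over the 6 it did not pass on CAS FAT-55 (adjusted p = 0.053) and WPI FAT-20 (adjusted p = 0.093). Gdf15 had r = -0.33 (adjusted p = 0.034, permutation test) and rho = -0.22 (adjusted p = 0.28), with r = -0.30 without the 2 farthest. That call was lost without the 1 mouse whose identifier carries different library numbers in the 2 tissues (r = -0.28, adjusted p = 0.11), without the 8 libraries (adjusted p = 0.058) and within stems (adjusted p = 0.089). For Angptl8 and Lect2 r was 0.01 and -0.11. Fgf21, Ahsg and Fetub were counted in the adjustment over 7 members, but their jejunal reads are too few for such a relation to be seen.

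**Figure D4:**
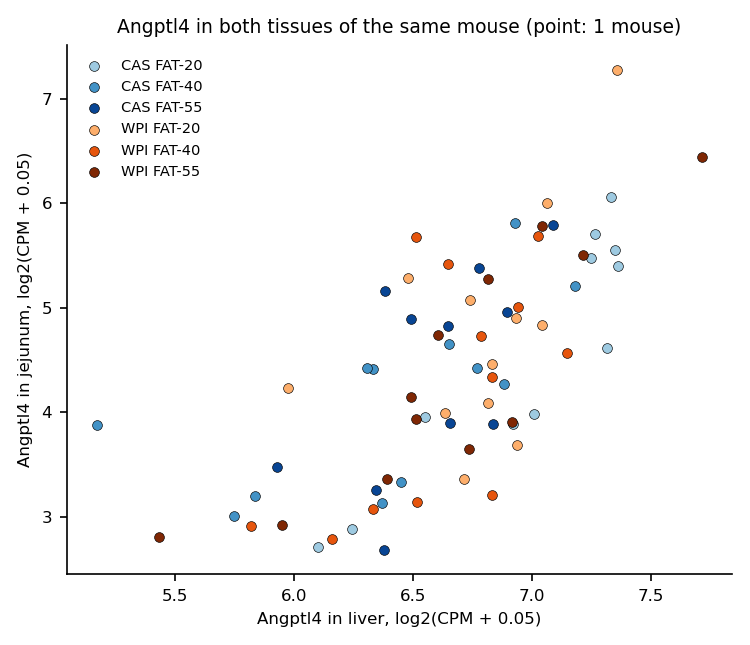
Angptl4 in liver (x axis) and jejunum (y axis) of the same mouse, both as log2(CPM + 0.05); each point is 1 of 70 mice, coloured by diet. Mice high in liver tend to be high in jejunum, with r = 0.70 once diet means are subtracted.

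Within diets, the members fell into pairs that varied together across livers. Of 21 pairs, 7 had a permutation p below 0.05 after adjustment over the 21, and 4 kept it within stems. Fetub and Ahsg were closest (r = 0.70, rho = 0.68, adjusted p = 0.0001, n = 70; r = 0.65 without the 2 farthest libraries and 0.80 within stems). Fgf21 and Gdf15 followed (r = 0.58, rho = 0.57, adjusted p = 0.0001; 0.55 and 0.48). The other 2 that kept it within stems were Angptl8 with Gdf15 (r = 0.43, rho = 0.45, adjusted p = 0.0046; 0.43 and 0.40) and Fgf21 with Angptl4 (r = 0.36, rho = 0.38, adjusted p = 0.0089; 0.35 and 0.44). Angptl8 ran opposite to Fetub (r = -0.36, rho = -0.38, adjusted p = 0.0075) and to Angptl4 (r = -0.30, rho = -0.34, adjusted p = 0.029; without the 2 farthest libraries -0.29, adjusted p = 0.054, no longer passing), and Angptl4 ran with Fetub (r = 0.37, rho = 0.41, adjusted p = 0.011), but these 3 did not pass within stems (adjusted p = 0.14, 0.32 and 0.34).

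**Figure D5:**
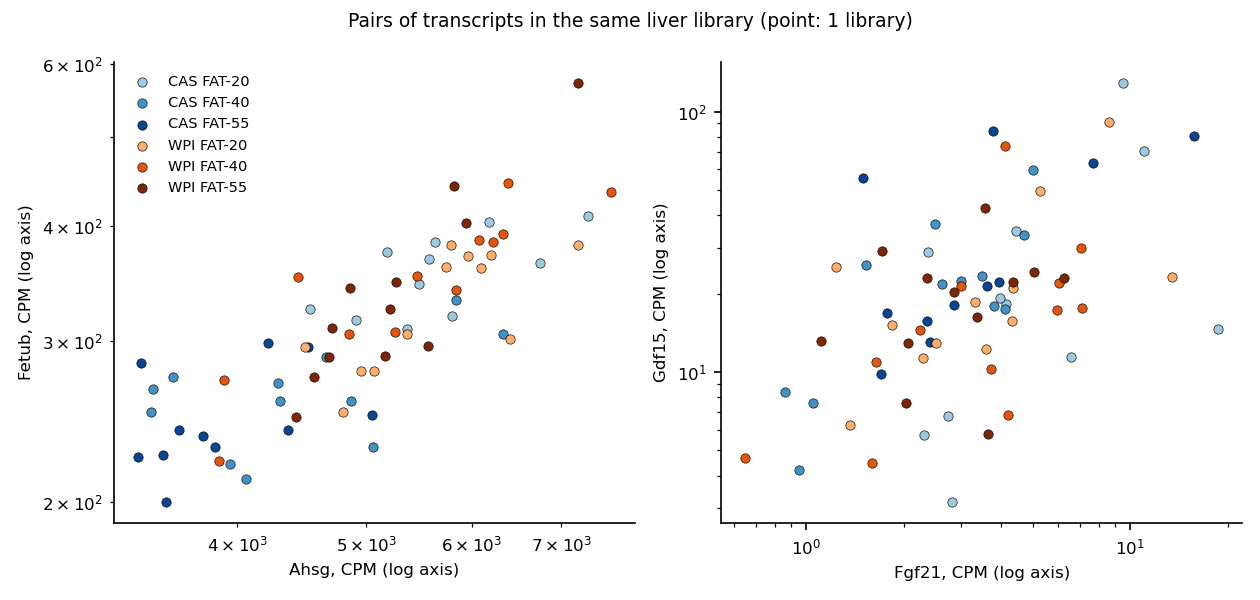
Level of Fetub against Ahsg (left) and of Gdf15 against Fgf21 (right) in each liver library, in CPM on log axes; each point is 1 library, coloured by diet. Both pairs rise together, with r of 0.70 and 0.58 after the diet means are subtracted. Most, but not all, of the CAS FAT-40 and CAS FAT-55 libraries lie toward the lower left of the fetuin panel.

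Over 12359 liver genes with a mean of at least 1 CPM, those most like each member, by Pearson's r of log2 CPM with the diet mean subtracted over 70 libraries, differed by member; as these share a library, its depth and scaling, they are given as a description. Ahsg was most like Serpina1a (r = 0.88), Plg (0.85) and Vtn (0.83), which encode the plasma proteins alpha-1-antitrypsin, plasminogen and vitronectin. Fetub was most like its cluster neighbour Kng1 (0.85), then 1300017J02Rik (0.83) and Cyp4f13 (0.82). Fgf21 was most like Plin2 (0.75), a lipid droplet coat protein, Tgoln1 (0.71) and Rtf2 (0.69). Gdf15 went with the early response genes Jun (0.73), Atf3 (0.71) and Zfp36 (0.68). Angptl8 was nearest to Inhbe (0.78), an activin subunit made in liver, Plk2 (0.70) and Anks4b (0.70). For Angptl4 they were Tra2b (0.74), a splicing factor, Tedc2 (0.72) and Baiap2l1 (0.71), and for Lect2 they were Akr1c20 (0.83), Prdx6 (0.78) and Gamt (0.78), which encodes an enzyme of creatine synthesis.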

How the data were processed

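The authors deposited a table of raw read counts per Ensembl gene for each tissue; per the submitters' processing notes, reads were trimmed with Trim Galore 0.61 and cutadapt and aligned with STAR to GRCm38, and the aligner's version, annotation release and strand setting are not given in the sources used here. The liver and jejunum tables were used, and hypothalamus was not used here. Rows that name no gene were left out; reads matching several places were 7.71% of reads in liver and 8.0% in jejunum. Groups and replicates come from the labels' treatment and animal identifiers.

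The main test was edgeR 4.0.16 with quasi-likelihood fitting, in R 4.3.3, after TMM scaling. It took all 70 libraries of a tissue in a single fit with a mean for each diet, and 12 comparisons were drawn from it. Genes entered if filterByExpr kept them, with a minimum count of 10 and a total of at least 15. CPM use TMM-scaled library sizes; depth is given in the report, and nothing says whether mice of a stem shared a cage or litter, so p-values measure the spread between these libraries. Correlations used log2 CPM with the diet mean subtracted and 100000 permutations within diets. For those between tissues, and for their plot, a pseudocount of 0.05 CPM was added before the log2. Alternatives were median-of-ratios scaling, no filter, DESeq2 1.42.0, sums by identifier stem, the stem as a random effect (limma 3.58.1), marker scores as covariates in jejunum, and leaving out each library; leaving out the jejunum libraries high in Adipoq or Fabp6 was chosen after seeing the data. The test was also tried on counts simulated from the measured means, spreads and library sizes, and the outcome is not given here. The members and all gene lists were chosen with earlier results of these data known. Named genes are the members, up to 3 genes with the smallest adjusted p per list and comparison, the 3 genes most like each member, and Alb and Apoa1.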

Additional observations from a re-analysis of the deposited data

Results flagged for a closer look

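The effect of fat differed between the protein sources for Fetub and Ahsg by the interaction test in edgeR. The log2 change of Fetub was higher on WPI than on CAS by 0.53 from FAT-20 to FAT-40 and by 0.60 from FAT-20 to FAT-55, and that of Ahsg by 0.43 from FAT-20 to FAT-55. None of these differences passed when counts were summed by identifier stem or when the stem was a random effect.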

How the results depend on the processing

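Fgf21 in liver and Lect2 and Gdf15 in jejunum rest on few reads per library, and the unknown meaning of the identifier stems limits every p-value. Of 19 liver calls, DESeq2 and median-of-ratios scaling kept 19 each, no count filter 16, the stem as a random effect 14 and sums by stem 6. Of 4 jejunum calls, 3 were kept under every alternative run. No paired analysis was possible because replicate numbers follow accession order within a diet and tie no mouse to a mouse of another diet.

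Liver members called fell by stem sums from 2 to 0 between protein sources over all fat levels, at FAT-40 and at FAT-55, from 5 to 2 for CAS FAT-40 against FAT-20, from 1 to 0 for WPI FAT-40 against FAT-20, and to 0 for both differences in the response to fat. Without the count filter they fell from 2 to 1 between proteins at FAT-40 and to 0 (FAT-40) and 1 (FAT-55) for the differences in response, and with the random effect to 1, 0 and 0. DESeq2 called 1 member, Lect2, between WPI FAT-55 and FAT-40 (adjusted p = 0.049). In jejunum Fetub made 2 members for CAS FAT-40 against FAT-20 without the filter (log2 -1.59, adjusted p = 0.028) and by stem sums (adjusted p = 0.042), and marker covariates left 0 for WPI FAT-40 against FAT-20. Same-mouse calls fell from 2 to 1 without the mismatched identifier, within stems, and without the libraries high in Adipoq or Fabp6, and member pairs from 7 to 4 within stems. Leaving out each library in turn gave 1 to 3 calls between proteins at FAT-40, 4 to 5 and 3 to 4 for CAS FAT-40 and FAT-55 against FAT-20, 0 to 1 for WPI FAT-55 against FAT-40, and 0 to 1 and 1 to 2 for the differences in response. The cause of these changes was not tested.

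Values that changed sign were all uncalled (log2). In liver, with the random effect, Gdf15 was 0.169 (WPI against CAS, FAT-20), 0.109 (CAS, FAT-40 against FAT-20) and -0.546 (difference in response, FAT-40), and Angptl8 0.004 (proteins, FAT-55). By stem sums Lect2 was -0.006 (proteins, FAT-20), Angptl8 -0.051 (CAS, FAT-40) and Fgf21 -0.078 (difference in response, FAT-55). In jejunum between proteins at FAT-55, the random effect gave -0.024 for Angptl4 and 0.021 for Angptl8, and Lect2 was 0.004 by median-of-ratios scaling, 0.002 by DESeq2 and 0.0 without the libraries high in Adipoq or Fabp6. Without those libraries Angptl4 was -0.084 and Lect2 -0.291 between proteins at FAT-20, and the differences in response were 0.172 and 0.239 for Angptl4 and 0.108 and 0.291 for Lect2. With marker covariates Angptl8 was -0.012 (CAS, FAT-55), -0.182 and -0.024 (WPI, FAT-40 and FAT-55) and -0.012 (difference in response, FAT-55), Gdf15 -0.077 (WPI, FAT-40), and the differences in response of Angptl4 0.098 and 0.011.

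Counts over all genes moved by over 1.5 times too. In liver, stem sums against the reported test called 711 against 2207 between proteins over all fat levels, 0 against 77 at FAT-20, 64 against 1236 at FAT-40, 211 against 2183 at FAT-55, 2754 against 4540 for CAS FAT-40, 58 against 984 for WPI FAT-40, 2171 against 4005 for WPI FAT-55, 0 against 542 (CAS) and 344 (WPI) for FAT-55 against FAT-40, and 0 against 224 and 2 against 1027 for the differences in response. The random effect called 1207 between proteins over all fat levels and 7, 490 and 1004 by fat level, 116 (CAS) and 3 (WPI) for FAT-55 against FAT-40, 249 for WPI FAT-40, and 2 and 110 for the differences in response, and no filter 30 between proteins at FAT-20, 618 for WPI FAT-40, 227 for WPI FAT-55 against FAT-40, and 107 and 539 for those differences. DESeq2 called 159 between proteins at FAT-20, 530 for WPI FAT-55 against FAT-40, and 357 for the first of those differences. In jejunum, against 4264 and 4711 (CAS) and 4378 and 5231 (WPI) for FAT-40 and FAT-55, marker covariates called 154, 1029, 36 and 262; stem sums called 2121 (CAS FAT-40), 2091 and 3411 (WPI), and 2548 were called for WPI FAT-40 without the libraries high in Adipoq or Fabp6. Between proteins in jejunum, against 2606 over all fat levels and 1058, 97 and 629 by fat level, stem sums called 1250, 227, 12 and 65 and the random effect 1571, 489, 33 and 108; 128 were called at FAT-20 without the libraries high in Adipoq or Fabp6, and DESeq2 called 175 at FAT-40.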
